A study of Cavia porcellus with 35 samples.

Results

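The prefrontal cortex (PFC) of 8 juvenile female guinea pigs was compared between offspring exposed before birth to the synthetic glucocorticoid (sGC) betamethasone and control offspring. The 8 libraries are all those of the first-generation (F1) female table, out of 35 in the series, and each came from 1 animal. The study gave pregnant guinea pigs repeated courses of betamethasone or saline in late gestation and followed both sexes and later generations of females. The sGC group held 4 F1 females whose mothers received betamethasone (labelled Beta 1 to 4) and the control group 4 F1 females whose mothers received saline (labelled Control 1 to 4). All were killed at postnatal day 40, and no strain was given for them. Per the study's methods, no litter gave more than 1 female, the right medial PFC was punched from frozen sections of cingulate area 1 and infralimbic cortex, and animals were chosen by whether enough good RNA was available. The 8 animals therefore stand for separate litters, but not for a random draw from them.

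The medial PFC governs attention, emotional control and the restraint of the stress axis, and its pyramidal (glutamatergic) neurons, GABA interneurons and glia all carry glucocorticoid receptors. Synthetic glucocorticoids cross the placenta, bind that receptor and change transcription, and the late fetal brain is passing through neuronal maturation and the onset of myelination when they are given. The striatum lies close behind and below the frontal cortex, and its medium spiny neurons express a distinctive set of genes, among them dopamine D2 and adenosine receptors, DARPP-32 and proenkephalin. A punch that takes in some striatum carries those transcripts, so their level is reported first.

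The libraries held 13908007 to 16951061 counts, and between 11474 and 11478 of the 11478 listed genes had at least 1 read in each. Of these genes, 11268 passed the filter on low counts and were tested. Levels below are CPM, the read counts of a gene scaled to a library of fixed size after normalization by the trimmed mean of M values (TMM), listed in the order of animals 1 to 4 of each group. Fold changes are log2 values of sGC relative to control ± their standard error (SE), and the false discovery rate (FDR) is the Benjamini-Hochberg adjusted p of edgeR's quasi-likelihood test over the 11268 genes, called at 0.05. The samples are labelled prefrontal cortex, while the text on extraction names the paraventricular nucleus of the hypothalamus. Hypothalamic marker genes were low in all animals, but not all were near the floor. Their summed level was 21.3 to 24.6 CPM in controls and 21.3 to 24.4 CPM in sGC animals over the 6 of 11 genes tested. The counts of AVP (vasopressin) and OXT (oxytocin) were near the floor, between 9 and 28 reads per library. SIM1 was read at 9.40 to 11.96 CPM in controls and 10.8 to 13.8 CPM in sGC animals. POMC was read at 6.31 to 9.34 CPM in controls and 5.34 to 6.16 CPM in sGC animals. Which of the 2 tissue names holds was not tested. SLC17A7, the vesicular glutamate transporter of cortical pyramidal neurons, was read at 989, 317, 171 and 239.7 CPM in controls and 1313, 1234, 884 and 3575 CPM in sGC animals. This marker of cortical neurons was present in all animals, with a wide spread within each group.

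In F1 females, 1864 genes differed between sGC and control, of which 1038 were up-regulated and 826 down-regulated. This is 16.5% of the genes tested, 9.21% in the upward and 7.33% in the downward direction. The changes were mostly modest, with a median size of 0.41 on the log2 scale and an interquartile range of 0.29 to 0.60. The groups did not overlap in 1722 of the 1864 genes (92.4%), against 2616 of all genes tested (23.2%). With upper-quartile in place of TMM scaling the split turned from 55.7% to 42.5% up-regulated, with 803 genes up and 1088 down, although this scaling moved the median fold change by only -0.04. The number of calls also rested on single animals. It fell to 613 without control animal 3, 828 without sGC animal 1, 992 without control animal 4, 1109 without sGC animal 4, 1218 without sGC animal 3 and 1227 without control animal 2.

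Transcripts of striatal medium spiny neurons were lower in the sGC animals. Of 22 genes on the list, 19 were tested, all 19 had a negative fold change, and 12 passed the test, with a median of -1.24 against -0.03 over all genes. Their summed level was 2071 to 6065 CPM in controls and 1107 to 1842 CPM in sGC animals. In bulk tissue fewer cells of a type and less RNA per cell cannot be told apart. This and the later gene lists were chosen with earlier results of these data known, so their counts may be in part fixed by the choice. STRIP2, a component of a phosphatase complex, was read at 105, 66.5, 76.9 and 89.96 CPM in controls and 35.4, 42.6, 37.2 and 40.1 CPM in sGC animals (log2 fold change -1.12 ± 0.14, FDR 0.0039). GNG7, the G protein gamma subunit that couples striatal dopamine and adenosine receptors to adenylyl cyclase, was read at 1332, 670.3, 720.0 and 939.9 CPM in controls and 264, 224, 352 and 389 CPM in sGC animals (log2 fold change -1.58 ± 0.25, FDR 0.00682). RARB, a retinoic acid receptor needed for striatal development, was read at 46.4, 35.97, 42.1 and 52.04 CPM in controls and 27.1, 22.05, 26.2 and 28.4 CPM in sGC animals (log2 fold change -0.77 ± 0.12, FDR 0.0069). For these 3 genes no sGC animal reached the lowest control, and each call was kept whichever animal was left out.

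The controls did not form one level for the defining markers of the striatum. DRD2, the dopamine D2 receptor, was read at 162, 13.4, 22.9 and 179 CPM in controls and 0.911, 1.998, 2.56 and 24.3 CPM in sGC animals, a difference that did not pass the test (log2 fold change -3.68 ± 1.13, FDR 0.0566). ADORA2A, the adenosine receptor of the same neurons, was read at 349, 39.7, 62.96 and 356 CPM in controls and 6.25, 5.99, 10.5 and 64.2 CPM in sGC animals (log2 fold change -3.22 ± 0.99, FDR 0.0566). Control animals 1 and 4 stood several-fold above controls 2 and 3, and sGC animal 4 stood above controls 2 and 3 for both genes. SYNDIG1L, a transmembrane protein enriched in the striatum, was read at 369, 41.4, 69.04 and 383 CPM in controls and 5.01, 7.03, 9.001 and 54.5 CPM in sGC animals and passed the test (log2 fold change -3.52 ± 0.98, FDR 0.0417), with sGC animal 4 above control animal 2. RGS9, which speeds the switching-off of dopamine receptor signalling, was read at 161, 54.6, 76.7 and 146 CPM in controls and 32.8, 37.6, 24.9 and 51.4 CPM in sGC animals (log2 fold change -1.58 ± 0.36, FDR 0.0218). RXRG, a retinoid receptor, was read at 62.2, 69.5, 39.9 and 53.8 CPM in controls and 40.2, 72.1, 2.84 and 37.5 CPM in sGC animals and did not differ beyond its spread (log2 fold change -0.56 ± 0.63, FDR 0.556). Of the 8 fits with an animal left out, RGS9 was called in 5 and SYNDIG1L in 2. The count of 12 fell to 5 without sGC animal 1 and to 6 without either control animal 4 or sGC animal 3, and to 5 without control animals 1 and 4 together, a choice made after the values were seen. The plot of striatal markers by animal shows this grading.

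**Figure D1:**
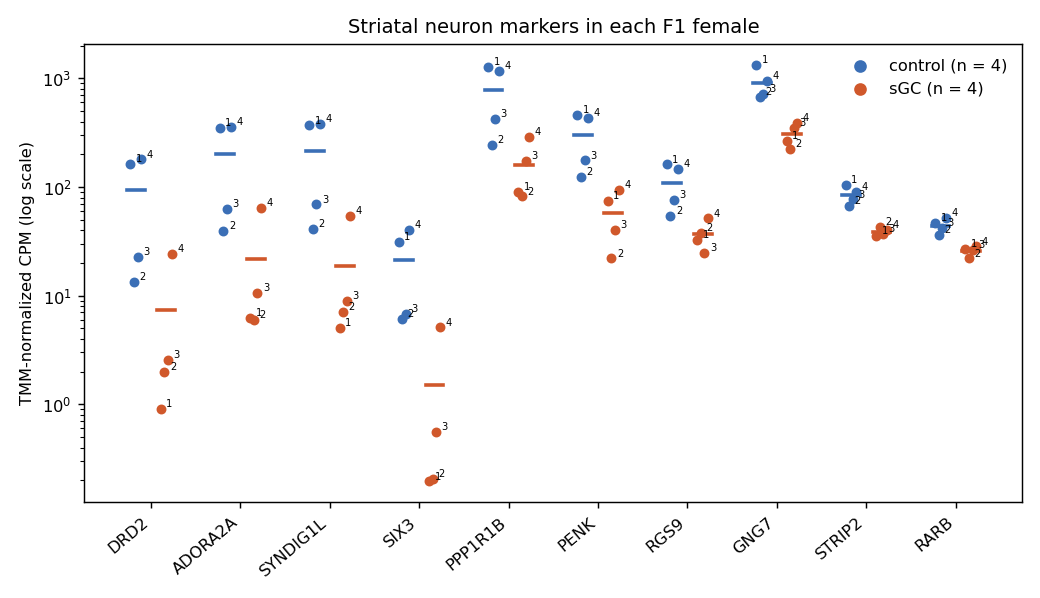
Level of 10 striatal neuron markers in each F1 female (vertical axis, TMM-normalized CPM on a log scale; horizontal axis, genes). Points are animals, numbered 1 to 4 within their group, and bars are arithmetic means of 4 animals. Control animals 1 and 4 are the highest for DRD2, ADORA2A and SYNDIG1L, and sGC animal 4 lies above control animals 2 and 3 for DRD2.

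Marker content was summarised per animal in 2 scores, so that each call could be refitted with them. The striatal score, the mean log2 CPM of DRD2, ADORA2A, SIX3, RGS9, SYNDIG1L, RARB and RXRG, was 6.88, 4.88, 5.20 and 6.93 in control animals 1 to 4 and 2.66, 2.98, 2.63 and 4.93 in sGC animals 1 to 4. The groups overlapped, since sGC animal 4 lay above control animal 2. The neuronal minus glial score, the mean log2 CPM of 9 neuronal genes less that of 7 glial genes, was 0.64, -0.14, 0.22 and 0.48 in the controls and 1.33, 0.95, 1.59 and 1.29 in the sGC animals, with no overlap. The groups accounted for 66.6% of the variance of the first score and 77.7% of the second. A fit with the second score therefore has little room to separate neuronal content from exposure, and for most genes content and exposure cannot be told apart. The SE of a fold change grew by a median factor of 1.72 with the striatal score and 1.95 with the neuronal minus glial score. With both scores it grew by 2.87. Calls were sorted by the size that a fold change kept rather than by its FDR. That size carries the same larger SE, so the sorting describes estimates and cannot show that a gene is independent of a score.

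**Figure D2:**
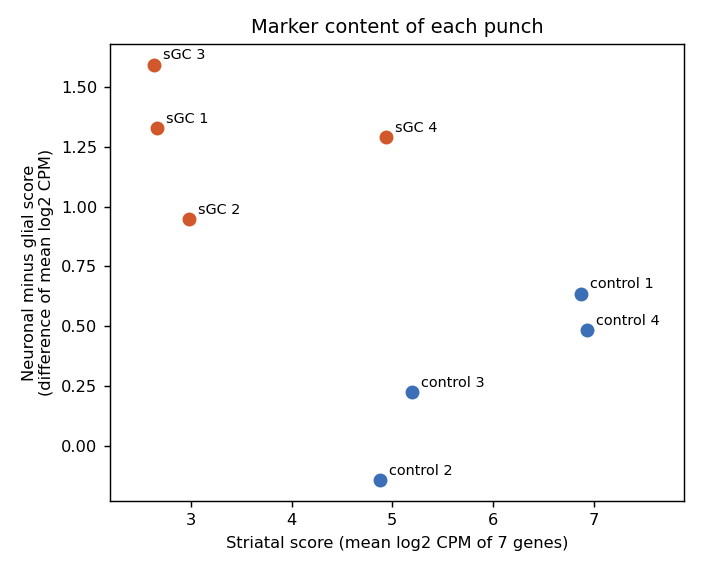
Striatal score (horizontal axis, mean log2 CPM of 7 genes) against neuronal minus glial score (vertical axis, difference of mean log2 CPM) in each F1 female. Each point is 1 animal. The 4 sGC animals lie above the 4 controls on the vertical axis, while sGC animal 4 at 4.93 overlaps the controls on the horizontal axis.

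By the size kept, most calls did not follow the striatal score. Leaving out the genes used in the scores, 1850 calls were refitted, and 1689 of them (91.3%) kept their sign and at least 0.5 of their log2 fold change with the striatal score in the fit. This held for 1001 of 1033 up-regulated genes (96.9%) and 688 of 817 down-regulated genes (84.2%). The remaining 161 calls followed the score, 129 of them down-regulated and 32 up-regulated, and 8 of the 161 changed sign. The rule also kept 2 of 8 calls of the medium spiny neuron list outside the score, STRIP2 at 63.7% and GNG7 at 50.7%. Keeping size therefore does not mark a gene as free of striatal content. Only 177 of the 1850 also passed the FDR in that fit, in which 217 genes were called in all (1.93%). With the neuronal minus glial score 1294 (69.9%) kept sign and size, 138 changed sign and 245 passed the FDR, while the fit called 730 genes (6.48%). In each of those fits alone, 1133 calls (61.2%) kept sign and size. With both scores together 1181 (63.8%) kept sign and size, but only 12 also passed the FDR, of 39 genes called (0.346%).

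The largest falls differed from the falls as a whole in this fit. Among called genes of at least 5 CPM whose groups did not overlap, the 8 with the largest fall all kept less than 0.5 of their fold change with the striatal score. SIX3 is itself a gene of that score, and the other 7 kept between 16.3% and 46.2%. The 8 with the largest rise all had a larger fold change in that fit, at 110% to 180% of the value without it. With the neuronal minus glial score, the 8 falls grew and 2 of the 8 rises kept less than 0.5. Since the scores and the groups share their variance, none of these shares is a measure of exposure alone.

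The largest falls were in genes of striatal or ventral forebrain neurons and in several with no such role known. SIX3, a homeobox gene of the embryonic forebrain that marks D2-type striatal neurons, was read at 31.3, 6.09, 6.82 and 40.3 CPM in controls and 0.195, 0.207, 0.554 and 5.11 CPM in sGC animals, which is 536, 88, 102 and 614 reads against 3, 3, 8 and 73 (log2 fold change -3.82 ± 0.99, FDR 0.0332). PENK, the precursor of enkephalin, was read at 462, 124, 175 and 432 CPM in controls and 74.7, 21.98, 40.4 and 93.7 CPM in sGC animals (log2 fold change -2.37 ± 0.55, FDR 0.023). CRABP1, a carrier of retinoic acid, was read at 36.1, 10.7, 13.7 and 29.9 CPM in controls and 4.49, 3.03, 3.74 and 8.68 CPM in sGC animals (log2 fold change -2.18 ± 0.46, FDR 0.0177). For these 3 genes control animals 1 and 4 were the 2 highest and sGC animal 4 was the highest of its group. TPD52L1, a small coiled-coil protein, was read at 95.1, 25.9, 45.5 and 94.6 CPM in controls and 13.4, 13.9, 17.9 and 23.7 CPM in sGC animals (log2 fold change -1.93 ± 0.41, FDR 0.0177). ZNF503, a zinc-finger repressor of the developing striatum, was read at 11.96, 5.46, 7.28 and 10.97 CPM in controls and 2.15, 2.69, 2.28 and 3.08 CPM in sGC animals (log2 fold change -1.81 ± 0.27, FDR 0.0058), and SYTL5, a Rab27 effector of vesicle transport, at 16.9, 6.16, 9.22 and 15.4 CPM in controls and 3.19, 2.34, 4.08 and 4.34 CPM in sGC animals (log2 fold change -1.77 ± 0.34, FDR 0.0128). SLC22A31, an orphan solute carrier, had a fold change of -1.69 ± 0.36, and DLX5, a homeobox gene of GABA neurons, of -1.64 ± 0.35. The order among the controls was the same for all 8 genes in that animals 1 and 4 lay above animals 2 and 3. The calls of ZNF503 and SYTL5 were kept whichever animal was left out. Without sGC animal 1 the calls of CRABP1, TPD52L1, SLC22A31 and DLX5 were lost, that of PENK was lost without control animal 4 or sGC animals 1 or 3, and that of SIX3 without control animals 1 or 4 or sGC animals 1, 2 or 3.

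The largest rises were in receptors, enzymes and a neuronal transcription factor at low to moderate levels. BPIFA3, a member of a family of secreted lipid-binding proteins, was read at 7.41, 4.01, 3.14 and 4.21 CPM in controls and 21.6, 23.2, 20.8 and 45.99 CPM in sGC animals (log2 fold change 2.56 ± 0.34, FDR 0.00428). Tacr3, the neurokinin B receptor, was read at 53.2, 60.04, 42.5 and 46.3 CPM in controls and 139.9, 191, 79.6 and 202 CPM in sGC animals (log2 fold change 1.601 ± 0.27, FDR 0.0077). MYLK4, a myosin light chain kinase, was read at 3.27, 3.46, 2.74 and 2.76 CPM in controls and 10.4, 13.6, 5.75 and 11.3 CPM in sGC animals (log2 fold change 1.75 ± 0.25, FDR 0.00545). HS3ST2, which sulfates heparan sulfate chains in brain, was read at 36.01, 27.5, 18.5 and 20.8 CPM in controls and 70.2, 52.9, 64.5 and 118 CPM in sGC animals (log2 fold change 1.57 ± 0.28, FDR 0.0105). These 4 calls were kept whichever animal was left out. AVPR1B, the vasopressin V1b receptor, was read at 4.09, 2.42, 1.47 and 1.97 CPM in controls and 7.42, 4.62, 7.201 and 16.7 CPM in sGC animals (log2 fold change 1.84 ± 0.44, FDR 0.0265), and NEUROD1, a transcription factor of neuronal differentiation, at 4.202, 2.698, 1.804 and 2.76 CPM in controls and 6.77, 6.06, 6.301 and 19.4 CPM in sGC animals (log2 fold change 1.74 ± 0.44, FDR 0.0308). In both, sGC animal 4 was the highest and control animal 1 the highest of the controls. C2orf40, which encodes the secreted peptide augurin, and PKP1, a desmosomal plakophilin, had fold changes of 1.63 ± 0.40 and 1.46 ± 0.37. The calls of these last 4 genes were lost without control animals 2, 3 or 4 or sGC animal 1, each left out alone, and those of C2orf40 and PKP1 also without sGC animal 4.

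**Figure D3:**
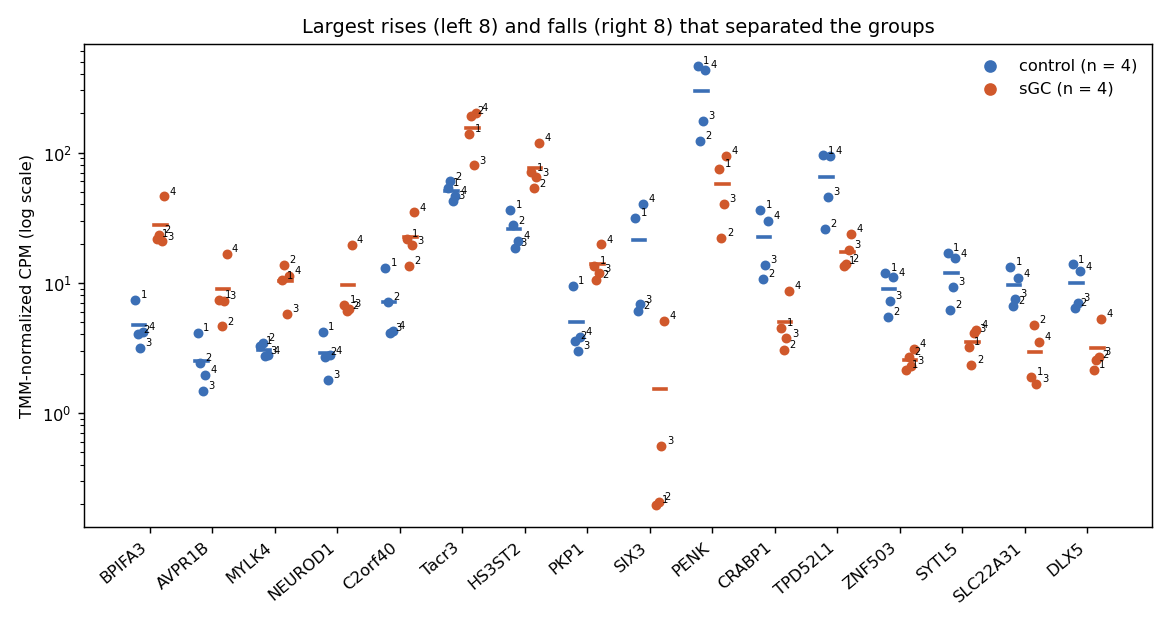
Level of the 16 genes with the largest rise (left 8) or fall (right 8) among called genes whose groups did not overlap (vertical axis, TMM-normalized CPM on a log scale; horizontal axis, genes). Points are F1 females numbered within their group and bars are arithmetic means of 4 animals. Controls 1 and 4 are the 2 highest controls for each fallen gene, and for BPIFA3 sGC animal 4 stands at 46.0 CPM above the other sGC animals.

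Many genes of transmitter release rose. Of 27 genes of the synaptic vesicle cycle, 24 were tested and 16 passed the test, all upward (9.21% of all genes were up-regulated), and the median fold change was 0.43, with 4 of the 24 negative. SYN2, a synapsin that tethers vesicles to actin, was read at 500.2, 487, 535 and 561 CPM in controls and 903, 914, 779 and 813 CPM in sGC animals (log2 fold change 0.71 ± 0.07, FDR 0.00356). SYN1, the other major synapsin, was read at 853, 771, 794 and 837 CPM in controls and 1224, 1106, 1159.9 and 1209 CPM in sGC animals (log2 fold change 0.53 ± 0.06, FDR 0.00356). SYP, synaptophysin of the vesicle membrane, was read at 1212, 1037, 1087 and 1162 CPM in controls and 1644, 1607, 1561 and 1659.9 CPM in sGC animals (log2 fold change 0.52 ± 0.06, FDR 0.0039). For these 3 genes the groups did not overlap and the call was kept whichever animal was left out. Leaving out SNAP25 and SYT1, which are genes of the neuronal score, 14 of 14 calls kept at least 0.5 of their fold change with the striatal score and 9 of 14 with the neuronal minus glial score. The count ranged from 12 to 18 with 1 animal left out. In the covariate fits the number of vesicle genes called upward was 9 with the striatal score, 2 with the neuronal minus glial score and 0 with both. The SE grew in those fits, as given above. The neuronal minus glial score did not overlap between the groups, so its part in the result cannot be told apart from exposure.

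Genes outside any list with the smallest p were of the same kind in part, though they were picked after the values were seen. SNAP91, a clathrin adaptor of synaptic vesicle recycling, was read at 472, 450.4, 472 and 483 CPM in controls and 682, 682, 672 and 664 CPM in sGC animals (log2 fold change 0.52 ± 0.04, FDR 0.00279). NAPB, a neuronal cofactor that helps to take SNARE complexes apart, was read at 719, 720.1, 726 and 741 CPM in controls and 1086, 1050.0, 1012 and 1066 CPM in sGC animals (log2 fold change 0.54 ± 0.05, FDR 0.00279). PAK1, a kinase that controls actin in dendritic spines, was read at 219.7, 215, 219.5 and 232 CPM in controls and 317, 332, 327 and 349.7 CPM in sGC animals (log2 fold change 0.58 ± 0.05, FDR 0.00279). APOE, the main lipid carrier made by astrocytes, moved the other way and was read at 1948, 1888, 1885 and 1816 CPM in controls and 1139, 1202, 1276 and 1152 CPM in sGC animals (log2 fold change -0.66 ± 0.06, FDR 0.00279). In these 4 genes the animals of each group lay close together and the groups were far apart. Their fold changes were 0.55, 0.56, 0.69 and -0.71 with the striatal score, with FDR of 0.0264, 0.0256, 0.0178 and 0.0255, and 0.47, 0.55, 0.55 and -0.71 with the neuronal minus glial score.

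Ion channels and transmitter receptors rose in smaller shares. Of 27 potassium channel genes tested 7 passed, all upward (9.21% of all genes were up-regulated), with a median of 0.24. KCNJ3, a subunit of the G protein-gated inward rectifier that slows firing, was read at 58.9, 46.5, 42.04 and 46.7 CPM in controls and 102, 87.02, 95.1 and 124 CPM in sGC animals (log2 fold change 1.07 ± 0.13, FDR 0.0039). KCNMA1, the large-conductance calcium-activated channel, was read at 177, 140.0, 143 and 150.1 CPM in controls and 219.6, 252, 212 and 236 CPM in sGC animals (log2 fold change 0.59 ± 0.09, FDR 0.0058), and KCNH1 (ether-a-go-go) had a fold change of 0.48 ± 0.07. The sGC animals lay above all controls for these 3 genes. The count was 11 without control animal 1, 4 without sGC animal 4 and 3 without control animals 3 or 4, and 11 without control animals 1 and 4 together. All 7 kept their size with the striatal score and 2 with the neuronal minus glial score.

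Among sodium and calcium channel genes, 6 of 21 tested were up-regulated (9.21% of all genes were), with a median of 0.16. SCN2A, the sodium channel of the pyramidal axon's initial segment, was read at 391, 306, 336 and 352 CPM in controls and 474, 499, 542 and 490.1 CPM in sGC animals (log2 fold change 0.53 ± 0.08, FDR 0.0059). SCN3B, an auxiliary subunit, had a fold change of 0.38 ± 0.06 and SCN8A, which sets the firing threshold, of 0.60 ± 0.14. The count fell to 3 without control animal 2 or sGC animal 1, and to 2 without control animals 3 or 4 or sGC animals 3 or 4. All 6 kept their size with the striatal score and 2 with the neuronal minus glial score, in which SCN8A came to -0.01. With upper-quartile scaling the count was 3, and SCN8A was called in 4 of 8 fits with an animal left out.

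Of 11 GABA-A receptor subunits tested, 4 passed, all upward (9.21% of all genes were up-regulated), with a median of 0.28. GABRA3, the alpha 3 subunit of deep-layer cortex, was read at 274, 236, 236 and 237 CPM in controls and 434, 417, 341 and 380.2 CPM in sGC animals (log2 fold change 0.68 ± 0.09, FDR 0.0039). No control reached the lowest sGC animal for this gene, and its call was kept whichever animal was left out, while 3 or 4 subunits in all were called whichever animal was left out. With the striatal score all 4 kept their size and with the neuronal minus glial score 2 did, GABRA3 among them.

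Ionotropic glutamate receptors moved less. Of 15 AMPA, kainate and NMDA receptor genes tested 2 were up-regulated, near the share of all genes, and the median was 0.07. GRIA3, an AMPA receptor subunit, was read at 136, 126, 127 and 125 CPM in controls and 176, 163, 178 and 169 CPM in sGC animals (log2 fold change 0.42 ± 0.05, FDR 0.0039), and GRIN1, the obligatory NMDA receptor subunit, had a fold change of 0.37 ± 0.11, which was lost in 6 of 8 fits that left out 1 animal. None of 4 metabotropic glutamate receptors passed edgeR's quasi-likelihood test, 1 had an unadjusted p under 0.05, and the likelihood ratio test and DESeq2 called 1 each. The nearest was GRM2, an inhibitory presynaptic receptor, at 38.4, 17.3, 16.4 and 21.7 CPM in controls and 40.7, 23.6, 55.3 and 64.8 CPM in sGC animals (log2 fold change 0.97 ± 0.35, FDR 0.0884). Of 18 postsynaptic scaffold genes tested 3 were up-regulated and 1 down-regulated (9.21% and 7.33% of all genes). The fall was in SHANK3, which anchors glutamate receptors and is abundant in striatum, at 349.8, 199, 217 and 223 CPM in controls and 149, 149, 191 and 154 CPM in sGC animals (log2 fold change -0.62 ± 0.18, FDR 0.0432). It kept 54% of its fold change with the striatal score and lost its call without control animals 3 or 4 or sGC animals 1, 2 or 4. The 3 rises, DLG3 and DLGAP4 among them, were lost with any animal but control animal 1 left out, and with upper-quartile scaling.

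Receptors for monoamines and acetylcholine were called in both directions, 3 up and 2 down of 20 tested. These shares were not far from the 9.21% up and 7.33% down of all genes. CHRM3, the muscarinic M3 receptor, was read at 257, 163, 139 and 149 CPM in controls and 342, 345, 317 and 437 CPM in sGC animals (log2 fold change 1.03 ± 0.20, FDR 0.0128). CHRNA4, the alpha 4 nicotinic subunit, was read at 23.9, 24.97, 23.1 and 25.04 CPM in controls and 39.8, 47.5, 27.9 and 44.3 CPM in sGC animals (log2 fold change 0.72 ± 0.15, FDR 0.016). Both calls were kept whichever animal was left out, and both genes kept their size in either covariate fit. DRD3, the dopamine D3 receptor of the ventral striatum, was read at 9.22, 4.77, 4.88 and 7.23 CPM in controls and 1.497, 3.17, 1.94 and 3.78 CPM in sGC animals (log2 fold change -1.33 ± 0.33, FDR 0.0287) and kept 19% of its fold change with the striatal score. Its call was lost without control animals 3 or 4 or sGC animals 1 or 3.

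Of 15 neuropeptide genes tested, 5 were down-regulated and 1 was up-regulated (7.33% and 9.21% of all genes). NTS, neurotensin, was read at 8.46, 2.01, 2.74 and 5.06 CPM in controls and 0.391, 0.6201, 0.277 and 0.63001 CPM in sGC animals (log2 fold change -3.24 ± 0.53, FDR 0.00721). NPY, neuropeptide Y of interneurons, was read at 74.6, 69.4, 68.3 and 68.3 CPM in controls and 59.1, 53.2, 51.03 and 53.6 CPM in sGC animals (log2 fold change -0.37 ± 0.06, FDR 0.0077). NPY kept 95% of its fold change with the striatal score and NTS 43%. GRP, gastrin-releasing peptide, which cortical pyramidal neurons make and which excites interneurons, was read at 2.101, 1.66, 1.67 and 2.17 CPM in controls and 7.36, 6.55, 4.15 and 7.98 CPM in sGC animals (log2 fold change 1.77 ± 0.23, FDR 0.00396). Its fold change was larger in both covariate fits. All 3 calls were kept whichever animal was left out. The other 3 fallen peptides, PENK among them, are abundant in striatal neurons, and the count of 5 fell to 3 without control animal 4, sGC animal 1 or sGC animal 3.

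Markers of cortical projection neurons did not move as one. The glutamatergic list had a median of 1.37, yet of 11 genes tested 1 was up-regulated (NEUROD1) and 1 down-regulated (ARPP21). The spread within groups was wide, as the values of SLC17A7 above show (log2 fold change 2.03 ± 0.63, FDR 0.0571), with control animal 1 near the sGC animals and sGC animal 4 far above all others. Without control animal 1 there were 6 up-regulated genes on this list. With the striatal score the median became 2.82 and 5 genes were called, and with the neuronal minus glial score it became -0.14 and none was called up. ARPP21, a cyclic AMP-regulated phosphoprotein shared with striatal neurons, was read at 573, 263, 393 and 556 CPM in controls and 223, 220.0, 307 and 269 CPM in sGC animals (log2 fold change -0.81 ± 0.23, FDR 0.0453), and its call was kept in 1 of 8 fits, that without control animal 2.

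Of 14 upper-layer genes tested 3 passed, all downward (7.33% of all genes were down-regulated). The median of 0.02 turned negative with upper-quartile scaling. CUX1, a homeobox gene of upper-layer neurons, was read at 169.9, 146, 146 and 146 CPM in controls and 107, 102, 121 and 111 CPM in sGC animals (log2 fold change -0.47 ± 0.07, FDR 0.00688). MDGA1, an adhesion molecule, had a fold change of -0.60 ± 0.13, and CALB1, calbindin, which striatal neurons also express, of -1.59 ± 0.37. CUX1 kept 84% of its fold change with the striatal score and CALB1 11%, and CALB1 was called in 4 of 8 fits with an animal left out. Of 12 deep-layer genes tested 3 passed, all upward (9.21% of all genes were up-regulated), with a median of 0.49. LDB2, a cofactor of LIM-domain transcription factors in corticospinal neurons, was read at 68.3, 48.3, 56.3 and 65.1 CPM in controls and 107, 79.3, 92.8 and 93.3 CPM in sGC animals (log2 fold change 0.64 ± 0.12, FDR 0.013) and was called whichever animal was left out. SOX5 (0.96 ± 0.25), a transcription factor of deep-layer identity, and CRYM (0.99 ± 0.26), mu-crystallin, were each called in 2 of 8 such fits. All 3 deep-layer calls kept their size with the striatal score. With the neuronal minus glial score 2 did, while LDB2 kept 14.8%.

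GABA neuron markers had fold changes of both signs, and those that passed were falls. Of 16 tested 4 passed, all downward (7.33% of all genes were down-regulated), with a median of -0.16. A positive fold change of up to 0.82 that did not pass was seen for 7. GAD2, the synaptic GABA-synthesising enzyme, was read at 299, 220.4, 269 and 304 CPM in controls and 171, 192, 179 and 170.2 CPM in sGC animals (log2 fold change -0.62 ± 0.10, FDR 0.00721) and kept 67% of its fold change with the striatal score. DLX5 and NPY are given above. Medium spiny neurons are themselves GABA neurons, and in GAD2 and DLX5 the 2 controls with the highest striatal scores were also the 2 highest. The count was 2 without sGC animal 1, and without sGC animal 2 there were 3 falls and 2 rises.

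Glial transcripts were lower in the sGC animals. Of 18 astrocyte genes tested 9 passed, all downward (7.33% of all genes were down-regulated), with a median of -0.30. NDRG2, a cytoplasmic protein of mature astrocytes, was read at 707, 819, 794 and 743 CPM in controls and 534, 584, 553 and 524 CPM in sGC animals (log2 fold change -0.48 ± 0.06, FDR 0.00423). GPR37L1, a prosaposin receptor on astrocytes, was read at 432, 508, 455 and 429 CPM in controls and 317, 330.2, 329.8 and 341 CPM in sGC animals (log2 fold change -0.47 ± 0.06, FDR 0.00445). HEPACAM, an adhesion protein that holds gap junction and chloride channels at astrocyte contacts, was read at 124, 154, 129.7 and 118 CPM in controls and 95.6, 98.9, 84.4 and 96.3 CPM in sGC animals (log2 fold change -0.49 ± 0.09, FDR 0.0116). The groups did not overlap in the 3 genes named. Leaving out AQP4 and GJA1, which are genes of the glial score, 7 of 7 calls kept their size with the striatal score and 4 of 7 with the neuronal minus glial score. The count was 5 without control animals 2 or 4 and 3 without control animal 3 or sGC animals 1 or 4, while the 3 genes named were called in every such fit.

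Of 17 microglial genes tested, 9 passed, all downward (7.33% of all genes were down-regulated), with a median of -0.49. TYROBP, the adaptor of the TREM2 receptor, was read at 20.4, 20.8, 21.4 and 21.4 CPM in controls and 14.6, 16.3, 13.02 and 13.7 CPM in sGC animals (log2 fold change -0.54 ± 0.08, FDR 0.00612). CX3CR1, the fractalkine receptor, was read at 81.4, 75.5, 68.2 and 64.99 CPM in controls and 51.4, 55.2, 47.6 and 52.2 CPM in sGC animals (log2 fold change -0.49 ± 0.08, FDR 0.00774). P2RY12, the purine receptor of resting microglia, was read at 36.5, 43.4, 35.8 and 32.7 CPM in controls and 29.3, 21.2, 22.4 and 25.2 CPM in sGC animals (log2 fold change -0.60 ± 0.12, FDR 0.015). All controls lay above all sGC animals in these genes. Leaving out the 3 that are genes of the glial score, 6 of 6 calls kept their size with the striatal score and 5 of 6 with the neuronal minus glial score. The count fell to 4 without control animal 3 and 5 without sGC animal 1.

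Oligodendrocyte genes leaned the same way without passing. All 21 myelin genes tested had a negative fold change, with a median of -0.69, and none was called by edgeR's quasi-likelihood test. Their summed level was 5544 to 18043 CPM in controls and 4402 to 8733 CPM in sGC animals, so the groups overlapped. The smallest p was that of NKX6-2, a transcription factor of myelinating cells (log2 fold change -0.43 ± 0.15, FDR 0.0784). An unadjusted p under 0.05 was seen for 9 of the 21, the likelihood ratio test called 4 and DESeq2 3. Without control animal 1 the count was 13, and without control animals 1 and 4 together it was 16. With the neuronal minus glial score the median turned to 1.08, with 11 genes called upward. Of 12 oligodendrocyte precursor genes 1 was down-regulated, LHFPL3, a membrane protein, at 37.6, 67.1, 58.8 and 52.9 CPM in controls and 31.9, 30.1, 28.9 and 30.1 CPM in sGC animals (log2 fold change -0.84 ± 0.15, FDR 0.0113). Without control animal 1, and also without control animals 1 and 4 together, 7 of the 12 were called.

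Calls in the lists of vascular and lining cells were few and all downward. The share called was 5.56% of endothelial and pericyte genes, 22.2% of meningeal genes and 20% of ependymal genes. Of all genes, 7.33% were down-regulated. Of 18 endothelial and pericyte genes 1 was down-regulated, CDH5 (VE-cadherin, -0.34 ± 0.09), and of 9 meningeal genes 2 were, LUM (lumican, -0.49 ± 0.10) and BGN (biglycan, -0.60 ± 0.14), of which CDH5 was called in 2 of 8 fits with an animal left out, LUM in 7 and BGN in 5. Of 5 ependymal genes 1 was called, CCDC153 (-0.93 ± 0.27), and that call was lost with any animal left out. None of the 6 hypothalamic genes was called by edgeR's quasi-likelihood or likelihood ratio test or by DESeq2, and 0 had an unadjusted p under 0.05, the smallest p being that of POMC (log2 fold change -0.32 ± 0.15, FDR 0.156).

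Genes of the extracellular matrix fell in part. Of 19 tested 6 passed, all downward (7.33% of all genes were down-regulated), with a median of -0.40. The study had reported BMP1, COL5A3, COL9A3, LAMA2 and ADAMTS4 of this list as lower in F1 sGC females. Here COL5A3, COL9A3 and ADAMTS4 had negative fold changes that did not pass (FDR 0.0689, 0.0743 and 0.112). The list was chosen with earlier results of these data known, so its count may be in part fixed by the choice. BMP1, a protease that matures collagens, was read at 20.8, 24.002, 21.9 and 20.5 CPM in controls and 13.1, 15.1, 12.2 and 13.4 CPM in sGC animals (log2 fold change -0.70 ± 0.09, FDR 0.0039). SPARC, a matricellular protein made by glia and vessels, was read at 2006, 1950.0, 1910.4 and 1833 CPM in controls and 1414, 1574, 1437 and 1407 CPM in sGC animals (log2 fold change -0.40 ± 0.06, FDR 0.00552). BCAN, brevican of perineuronal nets, was read at 335, 417, 352 and 315 CPM in controls and 267, 228, 201 and 225 CPM in sGC animals (log2 fold change -0.63 ± 0.11, FDR 0.00875). Controls and sGC animals did not overlap in these genes, and the 3 calls were kept whichever animal was left out. All 6 kept their size with the striatal score and 3 with the neuronal minus glial score. The count was 3 without control animals 2 or 3 or sGC animals 1 or 4.

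Cytosolic ribosomal protein genes were lower by small amounts. Of 36 genes listed 24 were tested, all 24 had a negative fold change, and 18 were down-regulated (7.33% of all genes were), with a median of -0.23 and a range of -0.49 to -0.02. RPS15 was read at 251, 279, 267 and 259 CPM in controls and 217, 203, 181 and 196 CPM in sGC animals (log2 fold change -0.41 ± 0.06, FDR 0.00687). RPS16 was read at 51.1, 53.1, 55.3 and 58.3 CPM in controls and 40.8, 43.8, 36.3 and 40.6 CPM in sGC animals (log2 fold change -0.43 ± 0.07, FDR 0.0077). The groups did not overlap in 21 of the 24 (23.2% of all genes), and sGC animal 3 was the lowest in both genes named. Copies of ribosomal protein genes can share reads, which makes the value of any one of them uncertain. Of the 18 calls, 17 kept their size with the striatal score and 14 with the neuronal minus glial score. The count rested on most animals, with 9 without control animal 2 or sGC animals 1 or 3, 7 without control animal 4 or sGC animal 4 and 3 without control animal 3. It was also 12 without control animal 1 and 4 without control animals 1 and 4 together.

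Oxidative phosphorylation genes stayed near the median of all genes. Of 26 tested 2 were down-regulated, NDUFA2 (-0.20 ± 0.05) and UQCRQ (-0.20 ± 0.06), each called in 1 of 8 fits with an animal left out. Of 18 chaperones 1 was down-regulated, DNAJC3 (-0.29 ± 0.08), and of 19 genes of cholesterol synthesis 1 was up-regulated, SC5D (0.32 ± 0.09), a desaturase near the end of the pathway. Each was called in 2 of 8 fits with an animal left out, and SC5D was not called with upper-quartile scaling. Of 28 DNA methylation and histone modifier genes 2 were down-regulated, the deacetylase HDAC1 at 33.1, 43.3, 38.2 and 35.9 CPM in controls and 26.4, 30.6, 22.1 and 26.9 CPM in sGC animals (log2 fold change -0.50 ± 0.11, FDR 0.0214) and the acetyltransferase KAT2B (-0.73 ± 0.21). With the neuronal minus glial score they came to 0.05 and 0.02. The call of HDAC1 was lost without control animal 3 or sGC animal 1, and that of KAT2B was kept in 3 of 8 such fits.

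Receptor and cofactor genes of the glucocorticoid system were called at a share near that of all genes, 16.7% against 16.5%. The share called was 7.69% for its target genes. Of 12 receptor and cofactor genes tested 2 were up-regulated. HSP90AA1, the chaperone that holds the glucocorticoid receptor ready for its ligand, was read at 2027, 1987, 2034 and 2111 CPM in controls and 2471, 2516, 2337 and 2489 CPM in sGC animals (log2 fold change 0.27 ± 0.05, FDR 0.013) and was called whichever animal was left out. CRHBP, which binds corticotropin-releasing hormone, was read at 17.5, 19.4, 17.6 and 16.5 CPM in controls and 29.4, 31.5, 18.5 and 24.2 CPM in sGC animals (log2 fold change 0.54 ± 0.15, FDR 0.0428), with sGC animal 3 below control animal 2, and was called in 1 of 8 such fits. NR3C1, the glucocorticoid receptor, was read at 86.6, 81.4, 80.7 and 85.7 CPM in controls and 74.8, 80.3, 70.3 and 81.97 CPM in sGC animals and did not pass (log2 fold change -0.12 ± 0.06, FDR 0.199), nor did NR3C2, the mineralocorticoid receptor (log2 fold change -0.08 ± 0.07, FDR 0.435), both named for their role in this system. Of 13 glucocorticoid target genes 1 passed, KLF15, a transcription factor induced by glucocorticoids, which was read at 12.5, 15.98, 13.97 and 11.5 CPM in controls and 9.11, 10.3, 7.34 and 7.35 CPM in sGC animals (log2 fold change -0.66 ± 0.15, FDR 0.0225) and kept 7.7% of its fold change with the neuronal minus glial score. That call was lost without control animal 3 or sGC animals 1, 3 or 4. FKBP5, the target most often used as a readout of receptor activity, was read at 14.2, 12.9, 12.5 and 13.01 CPM in controls and 17.2, 13.99, 10.5 and 13.7 CPM in sGC animals (log2 fold change 0.07 ± 0.14, FDR 0.754), and the groups overlapped.

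Activity-dependent genes showed 1 call and clock genes 3, beside 16.5% of all genes called. Of 17 immediate early genes 1 was down-regulated, BTG2, an antiproliferative factor (-0.74 ± 0.21), and that call was kept in only 1 of 8 fits with an animal left out. Of 14 clock genes, CLOCK at 36.5, 29.6, 34.5 and 36.9 CPM in controls and 41.9, 42.6, 47.8 and 41.4 CPM in sGC animals (log2 fold change 0.34 ± 0.08, FDR 0.0297) and its partner ARNTL (0.27 ± 0.07) were up-regulated and CRY1, their repressor, at 22.3, 24.9, 24.8 and 25.6 CPM in controls and 16.6, 20.3, 15.99 and 18.3 CPM in sGC animals (log2 fold change -0.45 ± 0.09, FDR 0.0142) was down-regulated. The groups did not overlap in any of the 3. The call of CRY1 was lost without control animal 3, that of CLOCK without control animal 3 or sGC animals 1, 3 or 4, and that of ARNTL in 5 of 8 such fits. All 3 kept their size with the striatal score and 1 with the neuronal minus glial score. In the latter fit CLOCK came to 0.0058 and CRY1 to -0.18. The hour of killing was not given for single animals.

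Signalling and guidance genes showed no large share of calls beside all genes (9.21% up, 7.33% down). Of 29 Wnt, Notch and BMP genes 3 passed, all downward. TCF7L2, the nuclear effector of Wnt signalling, was read at 9.98, 13.6, 12.4 and 11.6 CPM in controls and 6.704, 7.304, 7.06 and 7.21 CPM in sGC animals (log2 fold change -0.75 ± 0.11, FDR 0.00625), and NOTCH1 at 56.6, 67.7, 56.8 and 51.98 CPM in controls and 36.7, 45.6, 36.6 and 42.1 CPM in sGC animals (log2 fold change -0.53 ± 0.10, FDR 0.0131). Both calls were kept whichever animal was left out, whereas that of FZD1, a Wnt receptor (-0.65 ± 0.19), was kept in 1 of 8 fits and the gene came to -0.02 with the striatal score. Of the 3 calls, 2 kept their size with the striatal score and 1 with the neuronal minus glial score. In the latter fit TCF7L2 kept 49.6% of its fold change and NOTCH1 19.3%. Of 30 axon guidance genes 4 rose and 3 fell. EPHA5, an ephrin receptor of cortical and limbic projections, was read at 151, 117, 115 and 123 CPM in controls and 199, 197, 195 and 223 CPM in sGC animals (log2 fold change 0.69 ± 0.09, FDR 0.00431). NTN1, the attractant netrin-1, was read at 30.3, 29.1, 31.1 and 30.2 CPM in controls and 17.8, 17.6, 21.5 and 17.2 CPM in sGC animals (log2 fold change -0.70 ± 0.08, FDR 0.0039), and PLXNB1, a semaphorin receptor, at 179.7, 181, 163 and 159.5 CPM in controls and 116, 117, 128 and 133 CPM in sGC animals (log2 fold change -0.47 ± 0.07, FDR 0.00553). No animals overlapped in these 3 genes. The 4 rises were 1 without control animals 3 or 4 or sGC animal 1, and the 3 falls were 5 without control animal 2.

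**Figure D4:**
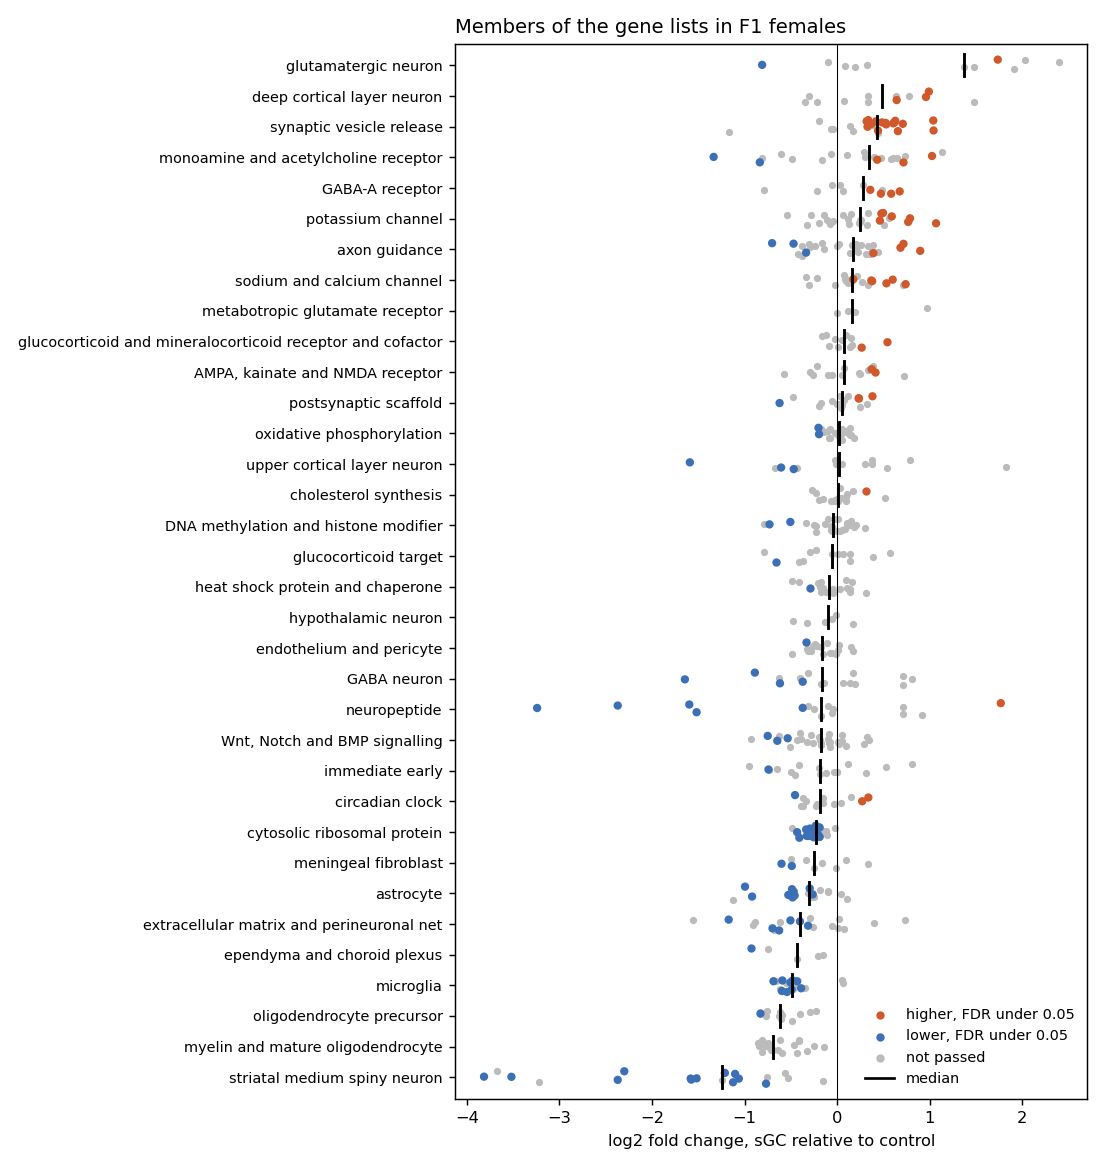
Log2 fold change of sGC relative to control (horizontal axis) for each tested gene of 34 lists (vertical axis), in F1 females with 4 animals per group. Coloured points passed an FDR of 0.05, grey points did not, and black bars are list medians. Synaptic vesicle genes lie to the right with 16 called, and ribosomal, astrocyte and microglial genes to the left with 18, 9 and 9 called.

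A small number of changes kept their size and the FDR with both scores in the fit. Among genes in no list and with groups that did not overlap there were 7 up-regulated and 1 down-regulated. SATB1, a chromatin organiser of cortical neurons, was read at 61.4, 52.7, 52.2 and 59.2 CPM in controls and 99.8, 93.9, 94.6 and 117 CPM in sGC animals (log2 fold change 0.85 ± 0.09, FDR 0.00356). GARNL3, a protein with a GTPase-activating domain, was read at 66.5, 71.9, 62.02 and 62.03 CPM in controls and 109.5, 123, 94.6 and 127 CPM in sGC animals (log2 fold change 0.79 ± 0.10, FDR 0.0039). CAMK2D, the delta subunit of calcium/calmodulin-dependent kinase II, was read at 127, 153, 129.7 and 123 CPM in controls and 205, 229, 172 and 218 CPM in sGC animals (log2 fold change 0.63 ± 0.10, FDR 0.00699). BPIFA3 and Tacr3, described above, were the others of the 5 with the smallest p. The fold changes of these 5 grew with both scores in the fit, to between 134% and 237% of the values without them. They were 1.13 for SATB1, 1.55 for GARNL3, 1.34 for CAMK2D, 3.84 for BPIFA3 and 3.80 for Tacr3. The FDR were 0.0454, 0.0289, 0.0312, 0.0372 and 0.0263. The down-regulated gene was SYTL5, at -2.44 with both scores (FDR 0.0372), although it kept 35% of its fold change with the striatal score alone. All 6 were called without a covariate whichever animal was left out.

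The largest changes were compared with the F1 males of the same exposure, 5 control and 6 sGC animals from the male table. Of the 16 genes, 15 could be tested in both sexes. The interaction of exposure and sex uses the same female values that chose these genes, so a large difference is in part fixed by the choice. Its FDR was under 0.05 for all 15, and for 3569 of all 11274 genes (31.7%). The female minus male difference in log2 fold change was 2.37 ± 0.69 (SE, FDR 0.0143) for BPIFA3, 1.95 ± 0.30 (FDR 0.000155) for Tacr3, 1.83 ± 0.31 (FDR 0.000325) for MYLK4, -2.48 ± 0.54 (FDR 0.00231) for PENK and -2.12 ± 0.29 (FDR 6.76e-05) for ZNF503. In males alone none of the 15 passed, and 5 had a fold change of the same sign as in females. The study, with the likelihood ratio test, reported SYTL5 as lower in F1 sGC males too. Its male log2 fold change here was -0.62 ± 0.24 (FDR 0.122). The interaction of SYTL5 (-1.15 ± 0.43, FDR 0.0467) was lost in 14 of 24 alternatives, and no other of the 15 was lost in any. Sex and table, and with it any handling by table, cannot be told apart.

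The levels of the controls differed between the tables, which were normalized separately. For all 15 genes the mean of the male controls was nearer to the female sGC mean than to the female control mean on a log scale. The same held for 62.9% of the 11061 genes tested in both tables and for 1406 of 1826 genes called in females (77%). The 15 were chosen for a wide gap between the female groups. PENK was read at 38.5 ± 11.6 CPM (SD, n = 5) in male controls, against 298 ± 174 (n = 4) in female controls and 57.7 ± 32.4 (n = 4) in female sGC animals. Tacr3 was read at 195 ± 44.7 CPM in male controls, against 50.5 ± 7.73 and 153 ± 56.0 CPM in the female groups, and MYLK4 at 7.52 ± 2.18, 3.06 ± 0.36 and 10.3 ± 3.32 CPM. The striatal score over the 6 of its genes tested in males was 2.05 to 2.46 in male controls and 2.14 to 2.50 in male sGC animals. Over the same 6 genes it was 5.25 to 7.20 in female controls and 3.16 to 5.36 in female sGC animals, so that every male lay below every female.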

How the data were processed

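RNA from 8 F1 female medial PFC punches was sequenced by the authors as single-end poly(A) libraries of 51 bases. The authors deposited whole-number read counts per gene, with fold change and p-value columns of their own that were not used here. TopHat2 and edgeR are named in the submitters' processing notes, while the genome build, the annotation, the counter and its strand setting are not given in the sources used here. Counts without strand cannot separate overlapping antisense genes. Of the listed symbols 10696 (93.2%) were found in the RefSeq guinea pig gene table, and 17 in the form of a date were not named.

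The female table was fitted with edgeR 4.0.16 under R 4.3.3 (filterByExpr with a minimum count of 10 and a minimum total of 15, TMM, quasi-likelihood F test), the SE being the fold change over the root of F. A two-sided adjusted p under 0.05 was called. Depth, 13908007 to 16951061 counts, was similar in all animals. The study used edgeR's likelihood ratio test, run here as an alternative beside DESeq2 1.42.0, other scalings and filters, animals left out, replicate number as a block, and marker scores (log2 CPM, prior count 2) as covariates. The likelihood ratio test here called 2100 genes (1070 up, 1030 down). The study reported fewer for F1 females, with more falls than rises, and the reason for this difference was not tested. Male counts entered 1 joint model with exposure, sex and their interaction. Genes were named by a rule: the 8 largest rises and falls of at least 5 CPM without overlap, up to 3 called genes per list by p, up to 5 genes in each direction that held with both scores, and the striatal score genes. A few genes that this rule picks are not reported here. The members and the 34 gene lists (678 genes, 572 tested) were chosen with earlier results of these data known. The fits were tested on simulated data. Same-group libraries differed by more than counting noise, so none was counted as a duplicate.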

Additional observations from a re-analysis of the deposited data

Results flagged for a closer look

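Each group of 4 animals was searched for 1 animal far from the other 3 by Dixon's test at its 95% level. Chance flags about 1 in 20 groups, and 18 of 200 were flagged, in groups that share their animals. Among sGC animals, animal 4 stood apart for BPIFA3 (46.0 CPM), NEUROD1 (19.4), SIX3 (5.11), LUM (6.58), EPHA5 (223), DRD2 (24.3), ADORA2A (64.2), SYNDIG1L (54.5) and the striatal score itself (4.93). Animal 3 stood apart for KCNH1 (155 CPM), SHANK3 (191) and NTN1 (21.5), and animal 1 for POMC (5.34). Among controls, animal 1 stood apart for PKP1 (9.45 CPM), CUX1 (169.9), GABRA3 (274), GRIA3 (136) and SHANK3 (349.8). The flags thus fell on control animal 1 in 5 groups and on sGC animal 4 in 9.

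The interaction of exposure and sex, as the log2 fold change in F1 females minus that in F1 males, had an FDR under 0.05 for the 15 genes tested. These genes were chosen for the largest female changes, so a large difference is in part fixed by the choice. For the up-regulated genes it was 2.37 for BPIFA3, 2.05 for AVPR1B, 1.83 for MYLK4, 2.09 for NEUROD1, 1.90 for C2orf40, 1.95 for Tacr3, 1.59 for HS3ST2 and 1.495 for PKP1. For the down-regulated genes it was -2.48 for PENK, -1.75 for CRABP1, -1.89 for TPD52L1, -2.12 for ZNF503, -1.15 for SYTL5, -1.85 for SLC22A31 and -1.52 for DLX5.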

How the results depend on the processing

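The 1864 calls (1038 up, 826 down) stayed within 1.5 times under the likelihood ratio test (2100), DESeq2 (2423), RLE (1896) or upper-quartile scaling (1891), no filter (1839), a filter at 1 CPM (1866), and without control animals 1 and 4 (1707), a choice made after the values were seen. They moved to 217 (167 up, 50 down) with the striatal score, 730 (339 and 391) with the neuronal minus glial score and 39 (16 and 23) with both, where SE grew as given above. With 1 animal left out they ranged from 613 to 2115 (402 to 1255 up, 211 to 860 down). The replicate number as a block gave 1080 calls (619 up, 461 down). The labels do not say what the numbers stand for. Deviations of same-numbered animals correlated at -0.33, 0.34, 0.19 and 0.06, and not every animal correlated best with its own number. Whether same-numbered animals shared any handling was not tested. The interaction count of 3569 lay between 3007 and 3785 in all alternatives, 3029 of them with the block, which left out male sGC animal 6. Of 97 named genes, 24 kept direction and side of the threshold with the striatal score, 31 with the neuronal minus glial score and 10 with both.

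Signs turned in covariate fits, the cause of which was not tested. With the striatal score DRD2 came to 0.65, ADORA2A to 0.50 and SYNDIG1L to 0.21, each itself part of that score. With the neuronal minus glial score DLGAP4 came to -0.0022, SCN8A to -0.011, GRIN1 to -0.080, GRM2 to -0.54, KAT2B to 0.021, BGN to 0.036, HDAC1 to 0.046, POMC to 0.15, NKX6-2 to 0.33 and RXRG to 0.85. With both, GRIN1 came to -0.019, CLOCK to -0.045, DLGAP4 to -0.12, NOTCH1 to 0.067, DNAJC3 to 0.070, CRY1 to 0.078, BGN to 0.11, NKX6-2 to 0.16, HDAC1 to 0.19, SLC22A31 to 0.24, DRD3 to 0.26, SIX3 to 0.74, BTG2 to 0.85, KAT2B to 0.92 and RXRG to 3.40. Fold changes of genes near 1 CPM rest on few reads, as for SIX3 in sGC animals.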
